A study of Junonia coenia with 20 samples.

Results

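The transcripts described here are the 80 of 16251 (0.492%) in hind wings of the buckeye butterfly Junonia coenia whose level was higher at each successive stage of wing development, by the widest margin. They were chosen by their measured levels: for every transcript the mean log2 level was taken at the larval, pre-pigment, early ommochrome and late ommochrome stage, the 3 differences between successive stages were formed, and the transcripts were ranked by the smallest of the 3. The first 80 in that order are the members. A rise from stage to stage is therefore what selected them and is not a finding, and their stage values are given as a description.

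Hind wings came from 2 seasonal colour morphs, Linea and Rosa, and the design text of the series states that RNA was sequenced from 4 stages of each. The stages were the imaginal disc of the 5th instar larva, the pupal wing before any pigment, the pupal wing with early (yellow) ommochrome and the pupal wing with late (orange to red) ommochrome. Each morph and stage had 2 libraries with values, 16 in all, and 4 further samples named in the labels were not analysed here. All animals descended from a North Carolina population fed artificial diet, and none carried an introduced allele or received an agent. Per the labels' protocols, 2 rearing regimes that bring about the alternative morphs were used, at 21°C with 8 h of light and at 27°C with 16 h of light. The labels do not tie a morph to a regime, so morph and rearing condition cannot be told apart if each morph came from its own regime. Nor do they say if a replicate stands for its own animal, a pool of animals or a second preparation of the same RNA. The p-values below then reflect how far these libraries differ, and that spread may be technical.

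A butterfly wing begins as an epithelial disc in the caterpillar and becomes the pupal wing, on which scale cells grow out in rows. Each scale takes on 1 main colour, and pigments appear in a fixed order late in pupal life. In nymphalids such as Junonia the yellow, red and brown ommochromes are made from tryptophan and are usually deposited before the dark melanins. A transcript that climbs through all of these stages thus spans the change from a growing disc to a wing with forming, pigmenting scales. The deposited table names transcripts only by identifiers of the authors' assembly, and no name table was used here. Nothing is therefore said of what any member encodes, no gene list could be matched, and the labelled tissue could not be checked against marker genes. The values come from whole wings, in which fewer cells of a type and less RNA per cell cannot be told apart.

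Values below are "scaled RPKM", the deposited RPKM (reads normalized for transcript length and library size) divided by a factor for each library that brings the median transcript to a common level. The factors ran from 0.578 to 1.81, and the 4 larval libraries had the 4 highest, so every stage difference is relative to the median transcript. For log2 values and differences 1 was added to the scaled RPKM first, and this understates the change of low transcripts. The summed RPKM per library was between 487429 and 832300, and between 11339 and 14314 transcripts reached 1 RPKM. RPKM keeps no read count, so the depth is unknown.

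The members were scarce in larval discs and made up a visible share of the wing transcriptome by the last stage. They held between 0.0561% and 0.139% of the summed RPKM in the 4 larval libraries and between 0.252% and 0.942% in the 4 pre-pigment libraries. At early ommochrome they held between 0.751% and 2.11%, and at late ommochrome between 2.21% and 4.35%. The late libraries lay above all others, whereas the highest pre-pigment library, Rosa replicate 1, overlapped the early stage. In that library 58.4% of the members' RPKM belonged to a single transcript, JC_0116515. Without JC_0116515 the pre-pigment shares were between 0.249% and 0.392%, the early shares between 0.746% and 1.43% and the late shares between 1.78% and 4%, and no stage overlapped the next.

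The median member had a stage mean of 1.82 scaled RPKM in larvae, 11.2 in pre-pigment wings, 25.8 at early ommochrome and 50.1 at late ommochrome. The median of all 15798 transcripts kept by the filter on low values stayed between 6.64 and 7.59 over the same stages. In larvae 33 of the 80 had a mean under 1 scaled RPKM and none reached 100. At late ommochrome none was under 1, 22 lay between 100 and 1000 and 4 exceeded 1000. All 80 passed the filter (at least 1 RPKM in at least 2 libraries), and none did so through the late libraries alone. At least 1 RPKM was reached by 41 to 62 members in a larval library and by 77 to 80 in a late library.

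**Figure D1:**
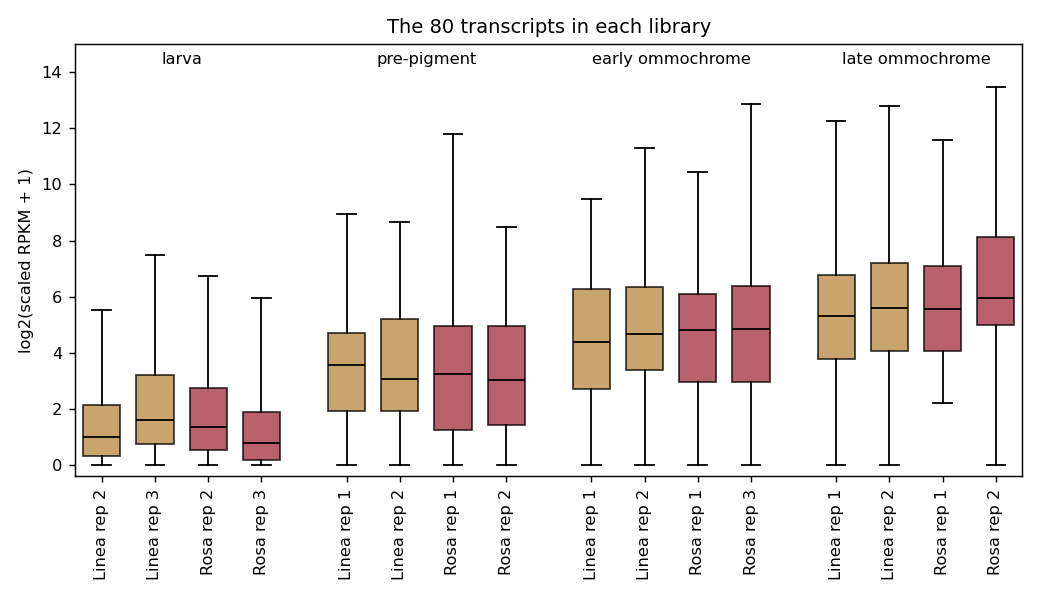
Level of the 80 transcripts in each of the 16 libraries, as log2(scaled RPKM + 1). Boxes span the middle 50% of the transcripts with the median as a line, whiskers reach the lowest and highest transcript, and colour marks the morph (tan Linea, red Rosa). Library medians run from 0.772 to 1.6 in larvae, 3.03 to 3.58 before pigment, 4.38 to 4.85 at early and 5.31 to 5.97 at late ommochrome, an order the choice of transcripts fixes.

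The step from larva to pre-pigment was the largest for 48 members, the step to early ommochrome for 22 and the step to late ommochrome for 10. The median step was 1.43 log2 units from larva to pre-pigment, 1.15 to early and 0.93 to late ommochrome, beside medians of -0.14, 0.08 and -0.06 over all tested transcripts. From larva to late ommochrome the members' difference ranged from 2.01 to 7.81 log2 units with a median of 3.95. For 20 members every step was at least 1 log2 unit.

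The rule separates neighbours by little at its edge. JC_0029191, at rank 80, had a smallest step of 0.644 log2 units, and JC_0041349, at rank 81 and outside the list, had 0.639. JC_0029191 was at 45.9 ± 31.6 scaled RPKM at early and 45.7 ± 21.4 at late ommochrome (SD, n = 4 each), so its last step was upward on the log scale and not in the linear mean. The same held at 1 step for JC_0111448, JC_0097415, JC_0044772, JC_0109997 and JC_0106246, which makes 6 of the 80, and the last 2 are named here after their values were seen. JC_0029191 stood at 1.49 in Linea early ommochrome replicate 1 and between 47.3 and 74.6 in the other 3 early libraries. JC_0041349 was at 198 ± 38.5 and 325 ± 132 scaled RPKM at the same stages (SD, n = 4 each), so the excluded neighbour had the clearer climb on the linear scale.

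JC_0023857 led the list, with a smallest step of 1.82 log2 units, and was the 16th most abundant of all transcripts at late ommochrome. In larvae it was at 10.8 and 178 scaled RPKM in Linea and at 8.08 and 10.6 in Rosa. In pre-pigment wings it was at 493 and 88.2 in Linea and at 213 and 95.6 in Rosa. Apart from Linea larva replicate 3, the larval libraries lay below all pre-pigment ones. At early ommochrome it was at 721 and 2485 in Linea and at 784 and 707 in Rosa. At late ommochrome it was at 3503 and 1273 in Linea and at 3052 and 11223 in Rosa. Early wings lay above all pre-pigment wings, while early and late wings overlapped through Linea replicate 2 of each stage.

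JC_0049630 was second, with a smallest step of 1.66 log2 units, and was less abundant than JC_0023857 in all 16 libraries. Larval values were 0.401 and 6.14 scaled RPKM in Linea and 1.59 and 0.501 in Rosa. Pre-pigment values were 39.6 and 2.48 in Linea and 40.9 and 5.93 in Rosa, high in both libraries numbered 1 and low in both numbered 2. Early values were 71.6 and 103.5 in Linea and 47.3 and 42.8 in Rosa, and all 4 exceeded the pre-pigment range. Late values were 288 and 103.5 in Linea and 135 and 395 in Rosa, at or above the highest early library.

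JC_0116515 had the largest difference from larva to late ommochrome, 7.81 log2 units, and the least orderly course. In larvae it was at 1.89 and 2.75 scaled RPKM in Linea and at 107 and 1.2 in Rosa. In pre-pigment wings it was at 71.4 and 24.1 in Linea and at 3537 and 42.2 in Rosa. One Rosa library at each of these stages was far above the other 3. At early ommochrome it was at 31.8 and 213 in Linea and at 121 and 7355 in Rosa. At late ommochrome it was at 4859 and 7073 in Linea and at 78.8 and 2390 in Rosa. Up to the early stage its mean thus rested mainly on 1 Rosa library, at late ommochrome Rosa replicate 1 was the low library, and each stage overlapped the next.

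The smallest difference from larva to late ommochrome among the members was that of JC_0076577, at 2.01 log2 units. It went from 2.17 ± 0.934 scaled RPKM in larvae through 4.3 ± 2.56 and 8.48 ± 7.25 to 11.5 ± 2.05 at late ommochrome (SD, n = 4 each). Its early libraries spanned 2.98 to 18.6 scaled RPKM and covered the whole late range.

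JC_0024424 and JC_0001575 had the most similar profiles of any pair of members, with r of 0.99 (Pearson) and rho of 0.99 (Spearman) on log2 values over the 16 libraries, which share their stages. JC_0024424 was at 3.74 ± 2.98, 63.8 ± 11, 184 ± 32.5 and 442 ± 166 scaled RPKM from larva to late ommochrome (SD, n = 4 each). JC_0001575 was at 0.647 ± 0.692, 7.87 ± 2.68, 14.2 ± 2.26 and 25 ± 10.7 (SD, n = 4 each). For JC_0024424 no library of a stage overlapped the stage before it. Late wings held 281 and 317 scaled RPKM of JC_0024424 in Linea and 602 and 568 in Rosa. After removal of the mean of each morph and stage the correlation between both transcripts was 0.73, over 8 residual degrees of freedom.

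**Figure D2:**
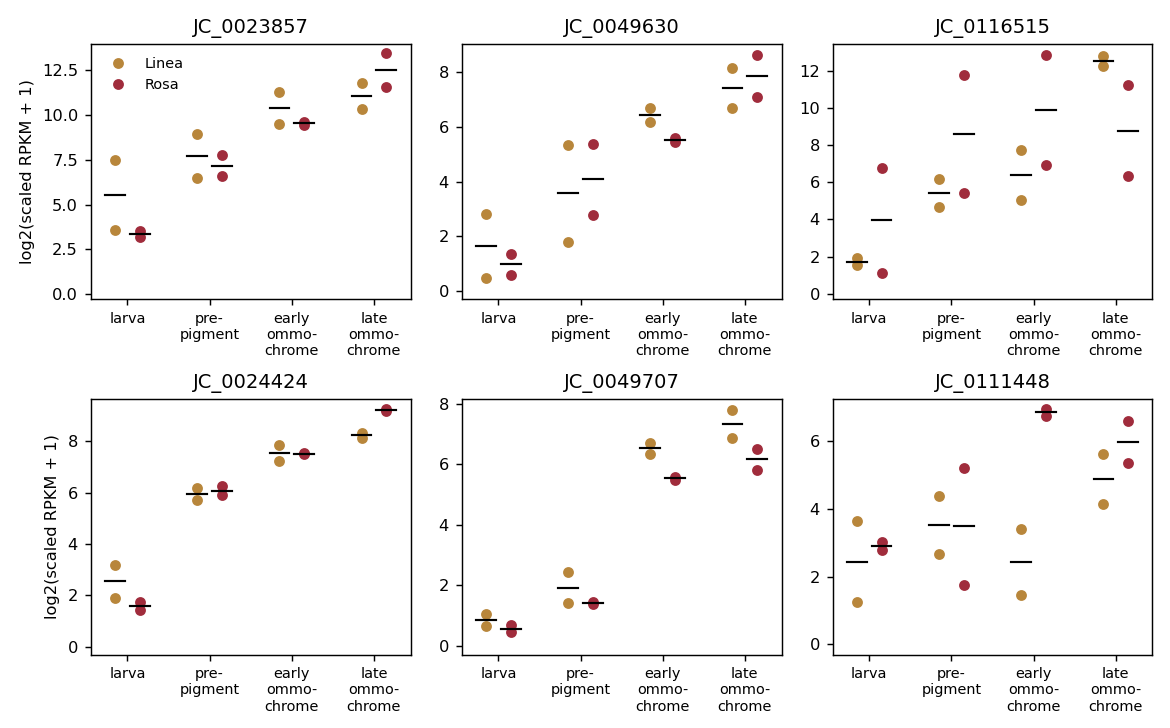
Selected members in the single libraries (points, tan Linea, red Rosa), as log2(scaled RPKM + 1), with the mean of each morph and stage as a bar (n = 2 libraries). JC_0024424 has tight pairs at every pupal stage, whereas the Rosa libraries of JC_0116515 lie far apart at all 4 stages.

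Replicate libraries of a member differed more than those of the typical transcript. The pooled SD between the 2 libraries of a morph and stage had a median of 0.95 log2 units over the members, from 0.34 to 2.97, and 0.69 over all tested transcripts. In 45 of the 80 this SD exceeded the member's own smallest step. The same libraries chose the members, and the SDs were not matched for level. Mean levels over the libraries had a median of 3.6 log2 units for the members and 2.86 for all tested transcripts. After removal of the morph and stage means, the 3160 pairs of members had a median correlation of 0.1, and 16.8% of pairs were above 0.5, beside 0.01 and 11.4% for pairs of all tested transcripts. These correlations rest on 8 residual degrees of freedom and on libraries shared by all transcripts.

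Counts of members whose libraries did not overlap between stages follow from the rule and are set beside the same count in all tested transcripts. Every pre-pigment library exceeded every larval one for 28 of 80 members, and for 13.2% of all transcripts. Every early library exceeded every pre-pigment one for 19 members (3.75% of all), and every late library exceeded every early one for 12 (1.36% of all). The late libraries were all above the larval ones for 72 members (13.4% of all). Without overlap at all 3 steps there were 4 members (0.0443% of all). Tests of the stage steps themselves in these libraries are not reported, since the same steps chose the members. The step to late ommochrome was most often a member's smallest (44 of 80).

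Taken alone, the Linea means (n = 2 libraries each) were higher at every step for 55 members and the Rosa means for 66, as were 6.23% and 6.67% of all transcripts. The difference between these counts was not tested, and both follow in large part from the rule, which used the same libraries. The members' counts rest on scaling over all 16 libraries, and the shares of all transcripts on scaling within each morph. Both morphs climbed at every step for 51 members and neither did for 10. In these 10 all 3 steps were upward only in the average of the morphs, while a single step could be upward in both. In Linea 11 members were not higher at the step to early ommochrome and 11 at the step to late, against 3 and 9 in Rosa. At 1 or more steps both libraries of a morph moved up and both of the other moved down for 6 members (7.5%), and for 10.5% of all tested transcripts. The median member stood at 1.34, 3.46, 4.35 and 5.21 log2 units over the stages in Linea and at 1.12, 2.83, 4.66 and 5.67 in Rosa, beside 2.72 to 3 in Linea and 2.72 to 2.89 in Rosa for all tested transcripts.

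**Figure D3:**
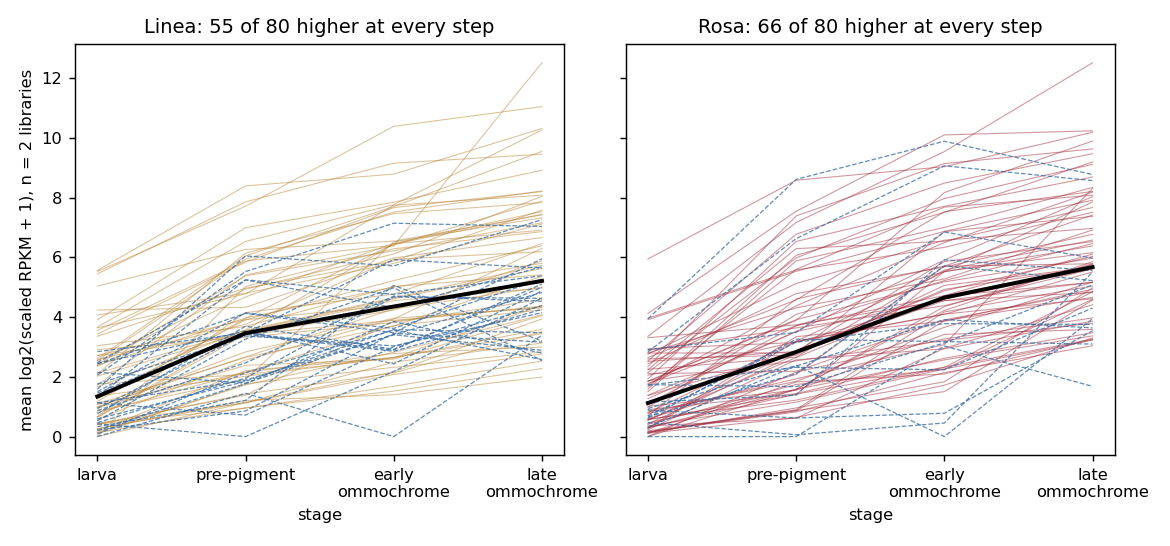
Stage means of each of the 80 transcripts in Linea and in Rosa, as log2(scaled RPKM + 1), n = 2 libraries per mean. Solid coloured lines are transcripts higher at every step in that morph (55 in Linea, 66 in Rosa), dashed blue lines the others, and the black line is the median over the 80.

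Whether such a climb recurs in libraries that did not choose it was examined by repeating the rule within a morph and reading the chosen transcripts in the other, with scaling, filter and fit confined to each morph's own 8 libraries. The rule gave 80 transcripts in Linea and 80 in Rosa. Of these 13 were shared (16.2% of each), and all 13 were among the 80 members. The members held 28 of the Linea choice and 33 of the Rosa choice, with the 13 included in both counts.

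Transcripts chosen in Linea were mostly higher at the last stage sampled than in larvae in Rosa as well. From larva to late ommochrome 46 of 80 rose in Rosa and 0 fell (limma on 8 Rosa libraries, adjusted p under 0.05 over 15281 transcripts), where 3.9% of all transcripts rose and 1.09% fell. Their median difference in Rosa was 3.53 log2 units, against -0.09 for all transcripts, and 75 of 80 differences were above 0. With the replicate number as a block, which leaves fewer residual degrees of freedom, the count was 0. It was also lower without any single Rosa larval, early or late library, fits that leave 1 library in a group. Over the settings run, between 0 and 785 of all transcripts rose in Rosa, so a count of 0 need not be particular to the chosen transcripts.

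The stepwise form of the climb recurred for fewer of them. All 3 steps were above 0 in Rosa for 35 of the 80 Linea-chosen transcripts (43.8%), and for 6.67% of all transcripts. The step from larva to pre-pigment was above 0 for 73, with a median of 2.02 log2 units, and 16 rose in limma, as did 3.66% of all transcripts. The step to early ommochrome was above 0 for 61, with a median of 1.26, and the step to late for 52, with a median of 0.47. Of all transcripts 54.6% and 49.9% were above 0 at these later steps. No chosen transcript rose past the limma threshold at either later step in Rosa, nor did any of all transcripts (0% at both), although 26 and 10 of the chosen were higher at an unadjusted p under 0.05, beside 4.12% and 1.9% of all.

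JC_0023634 was first in the Linea choice. In Rosa it rose by 5.75 ± 1.11 log2 units from larva to late ommochrome (SE, limma adjusted p = 0.032). Its Rosa libraries held 12.2 and 2.86 scaled RPKM in larvae, 315 and 30 in pre-pigment wings, 409 and 699 at early and 325 and 442 at late ommochrome. The late pair lay below the early mean, a step of -0.5 log2 units. JC_0051711, second in the Linea choice and no member, rose in Rosa by 3.92 ± 0.617 log2 units (SE, limma adjusted p = 0.018), from 0.916 and 0.993 in larvae to 46.5 and 16 at late ommochrome. JC_0049772 and JC_0004284 were the first in rank to go the other way, at -0.52 ± 1.22 and -1.14 ± 1.86 log2 units in Rosa (SE, limma adjusted p = 0.87 and 0.79), both within their error. The Rosa larval libraries of JC_0004284 held 50.3 and 0 scaled RPKM.

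The reverse reading gave similar counts and a different tail. Of the 80 transcripts chosen in Rosa, 47 rose in Linea from larva to late ommochrome and 6 fell (limma on 8 Linea libraries, adjusted p under 0.05 over 15227 transcripts), where 8.88% of all transcripts rose and 8.22% fell. The median difference was 3.18 log2 units, against -0.1 for all, with 66 of 80 above 0. The count of risers was 8 with the replicate number as a block. It was also below 47 without either Linea larva library, fits that leave 1 library in a group. Over the settings run, between 90 and 1450 of all transcripts rose in Linea. All 3 steps were above 0 in Linea for 34 transcripts (42.5%), and for 6.23% of all. The step from larva to pre-pigment was above 0 for 72, that to early ommochrome for 66 and that to late for 47, with medians of 1.79, 1.15 and 0.33 log2 units. Of all transcripts 48.4%, 52.7% and 43.6% were above 0 at these steps, so the last count (58.8%) was the nearest to the background. In limma 20 rose at the first of these steps, 0 at the second and 0 at the last, beside 9.64%, 0.00657% and 0.0657% of all transcripts, and 25 and 6 were higher at the later steps at an unadjusted p under 0.05 (4.26% and 2.06% of all). At the last step 5 fell, as did 0.355% of all.

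JC_0023857 was first in the Rosa choice too. It rose in Linea by 5.51 ± 1.38 log2 units (SE, limma adjusted p = 0.033), with Linea larva replicate 3 at 178 scaled RPKM against 10.8 in replicate 2. In the Linea choice it ranked 54th, and in Rosa it rose by 9.17 ± 0.754 log2 units (SE, limma adjusted p = 0.0064). JC_0007531, second in the Rosa choice, rose in Linea by 4.95 ± 1.03 log2 units (SE, limma adjusted p = 0.017), from 1.74 and 5.31 scaled RPKM in larvae to 65.5 and 258 at late ommochrome.

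JC_0112992, seventh in the Rosa choice and no member, fell in Linea by 4.64 ± 0.612 log2 units (SE, limma adjusted p = 0.0038). Its Linea libraries held 33 and 20.6 scaled RPKM in larvae, 70.2 and 75.8 before pigment, 33.6 and 117 at early ommochrome and 0.0158 and 0.0203 at late ommochrome. Its Rosa libraries held 0.0395 and 1.03 in larvae and 111 and 24.6 at late ommochrome. The late libraries of the morphs therefore did not overlap, nor did the larval ones, in opposite order. JC_0109874, twelfth in the Rosa choice, was at -0.24 ± 0.837 log2 units in Linea (SE, limma adjusted p = 0.87), having reached 130 and 87.5 scaled RPKM at early and 0.633 and 7.5 at late ommochrome.

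**Figure D4:**
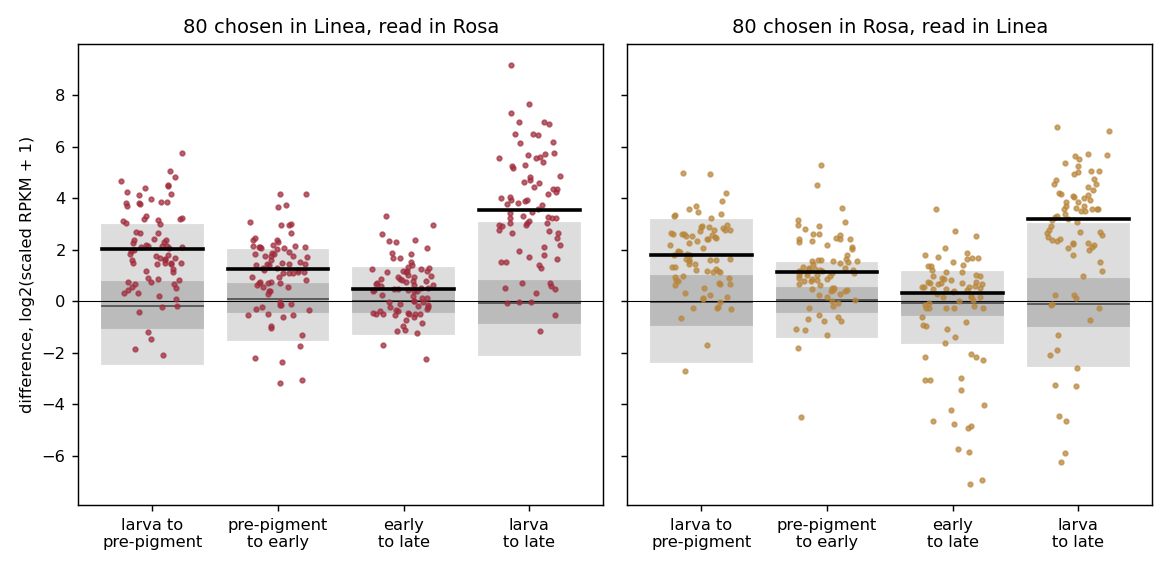
Differences between stages on the log2(scaled RPKM + 1) scale in a morph for the 80 transcripts chosen in the other (points, with their median as a black bar). Grey boxes give the middle 50% (dark) and 90% (light) of all 16251 transcripts with their median. Medians of the chosen transcripts are above 0 at each step, 2.02, 1.26 and 0.47 in Rosa and 1.79, 1.15 and 0.33 in Linea, and a tail of Rosa-chosen transcripts lies far below 0 at the last step in Linea.

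Rosa and Linea were then compared within each stage. The rule did not rank by this contrast, since every stage mean holds 2 libraries of each morph. The same 16 libraries chose the members, however, and a single high or low library can enter both. The comparison is therefore not independent of the choice. No member passed the threshold in limma at any stage, averaged over stages or in the F test for a morph by stage interaction (8 groups, 16 libraries, adjusted over 15798 transcripts). Over all transcripts the share called was 0.114% in larvae, 0% in pre-pigment wings, 0.0127% at early and 0.00633% at late ommochrome, 0.0127% averaged over stages and 0% for the interaction, so few calls were made anywhere. At an unadjusted p under 0.05 there were 2 members in larvae, 8 in pre-pigment wings, 5 at early and 4 at late ommochrome, 3 averaged over stages and 7 for the interaction. These are 2.5%, 10%, 6.25%, 5%, 3.75% and 8.75% of the members, beside 6.48%, 4.86%, 5.58%, 5.35%, 5.56% and 6.1% of all transcripts.

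As a list the members were more often lower than higher in Rosa in larvae and more often higher at both ommochrome stages, while in pre-pigment wings their split was that of all transcripts. The median Rosa minus Linea difference was -0.17 log2 units in larvae, with 27 of 80 higher in Rosa (33.8%), and -0.16 in pre-pigment wings, with 35 higher (43.8%). It was 0.26 at early ommochrome, with 52 higher (65%), and 0.59 at late ommochrome, with 58 higher (72.5%). The medians of all transcripts were -0.01, -0.08, -0.07 and 0.05, and 49.1%, 44.4%, 45.2% and 53.6% of them were higher in Rosa at the 4 stages in order. Averaged over stages the members' median was 0.04, with 43 of 80 higher in Rosa, and it was -0.04 with a pseudocount of 0.1 and -0.01 without Linea larva replicate 2. Without Linea larva replicate 3 it was 0.11, with 51 higher. With RPKM as deposited it was 0.25, with 60 of 80 higher in Rosa, as were 66.3% of all transcripts. These are descriptions of the list in the libraries that chose it, with no test.

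These medians moved with single libraries. In Rosa late ommochrome replicate 2 the members stood a median of 0.62 log2 units above their stage mean, and in Linea late ommochrome replicate 1 they stood 0.44 below it. The other late libraries were within 0.03 of it. Without Rosa replicate 2 the late median was 0.14, with 50 of 80 higher in Rosa. Without Linea replicate 1 it was 0.3, with 51 higher, and without Rosa replicate 1 it was 0.92. In larvae the median was 0.05 without Linea replicate 3, in which the members stood 0.36 above their stage mean, -0.51 without Linea replicate 2 and -0.46 without Rosa replicate 2. In pre-pigment wings it was 0.02 without Linea replicate 1, -0.33 without Linea replicate 2, -0.07 without Rosa replicate 1, -0.09 without Rosa replicate 2 and 0.01 with quantile normalization. At early ommochrome it was 0.2 without Linea replicate 1 and 0.18 without Rosa replicate 1, with 45 and 52 of 80 higher in Rosa. The early median was 0.49 without Linea replicate 2, 0.42 without Rosa replicate 3 and 0.53 with the replicate block within each stage.

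**Figure D5:**
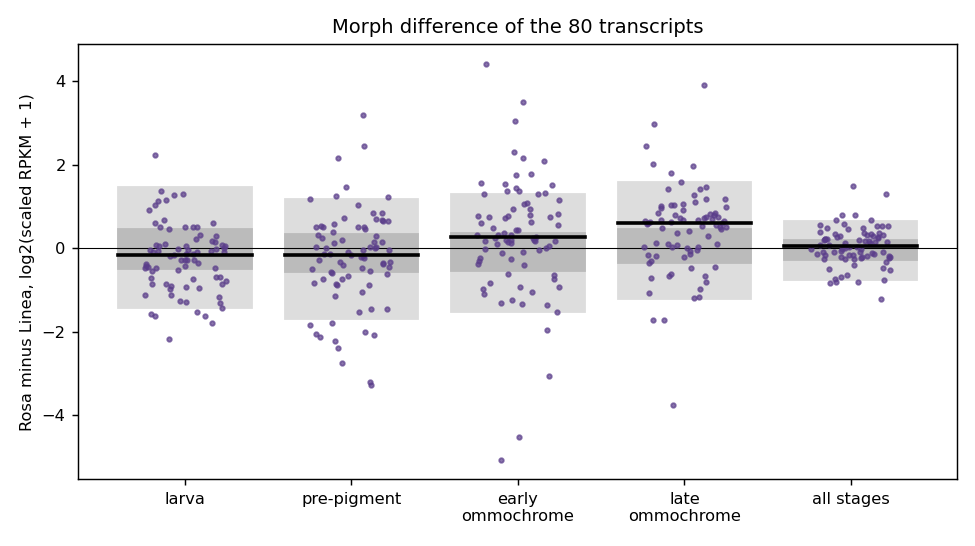
Rosa minus Linea difference of the 80 transcripts (points) at each stage and averaged over the 4 stages, on the log2(scaled RPKM + 1) scale, with the members' median as a black bar. Grey boxes give the middle 50% and 90% of all 15798 tested transcripts. The members' median goes from -0.17 in larvae to 0.59 at late ommochrome, and no point passed the threshold of the test.

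The members described next are those with the smallest p in each direction at a stage. At an unadjusted limma p under 0.05, 0 members were higher and 2 lower in Rosa in larvae, and 2 and 6 in pre-pigment wings. At early ommochrome these numbers were 2 and 3, and at late ommochrome 3 and 1. In larvae JC_0023654 was at 7.86 and 24.6 scaled RPKM in Linea and 3.72 and 4.45 in Rosa, or -1.57 ± 0.66 log2 units (SE, limma adjusted p = 0.74). JC_0044772 was at 0.765 and 0.723 in Linea and 13.7 and 0.26 in Rosa, or 1.3 ± 0.95 log2 units (SE, limma adjusted p = 0.91), which turned to -0.46 without Rosa larva replicate 2. In the first the morphs did not overlap, and in the second a single Rosa library set the sign.

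In pre-pigment wings JC_0110332 was at 83.2 and 51 scaled RPKM in Linea and 11.4 and 2.73 in Rosa, or -3.28 ± 0.72 log2 units (SE, limma adjusted p = 0.53). By late ommochrome it was at 196 and 118 in Linea and 165 and 164 in Rosa, so the Rosa libraries lay within the Linea range. JC_0050059 was at 0.0584 and 1.56 in Linea and 6.49 and 9.67 in Rosa pre-pigment wings, or 2.44 ± 0.89 log2 units (SE, limma adjusted p = 0.97).

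At early ommochrome JC_0097415 was at 39.1 and 26.8 scaled RPKM in Linea and listed at 0 in both Rosa libraries, and -5.06 ± 1.02 was the fitted log2 difference (SE, limma adjusted p = 0.13). It was at 6.71 and 9.96 in Linea and 17.8 and 11.7 in Rosa at late ommochrome. The order of the morphs was thus opposite at the 2 stages, without overlap at either. JC_0097415 also had the smallest interaction p among the members (limma F test, adjusted p = 0.39). With array weights it was the 1 member that passed at early ommochrome (limma adjusted p = 0.02), where the count over all transcripts was 62.

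JC_0111448 was at 1.73 and 9.72 scaled RPKM in Linea and at 123 and 106 in Rosa at early ommochrome, or 4.41 ± 1.16 log2 units (SE, limma adjusted p = 0.37). Averaged over the 4 stages its difference was 1.48 ± 0.58 (SE, limma adjusted p = 0.84), with larval, pre-pigment and late ommochrome libraries of the morphs overlapping. JC_0049707 was the member lower in Rosa with the smallest p averaged over stages, at -0.74 ± 0.25 log2 units (SE, limma adjusted p = 0.8). Its larval values were 0.579 and 1.06 in Linea and 0.617 and 0.353 in Rosa. Early values were 80.3 and 103 in Linea and 43.4 and 47.2 in Rosa, and late values were 116 and 219 in Linea and 90.1 and 54.9 in Rosa. The morphs did not overlap at either ommochrome stage. At late ommochrome alone its difference was -1.17 ± 0.5 log2 units (SE, limma adjusted p = 0.89).

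JC_0050624 was the member with the smallest p at late ommochrome, at 5.6 and 66.2 scaled RPKM in Linea and 109 and 917 in Rosa. Its log2 difference was 3.91 ± 1.2 (SE, limma adjusted p = 0.6), and it ran from 2.23 to 5.61 when single libraries were left out. Before that stage it was between 4.93 and 8.14 scaled RPKM in all 4 early libraries, and its step to late ommochrome, 3.5 log2 units, was the largest last step of any member.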

How the data were processed

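Per the file header and the series text, the authors deposited RPKM values for 16251 assembled transcripts. Per the submitters' processing notes Bowtie 0.12.7 served for alignment. How transcripts were assembled and filtered and how RPKM was estimated is not given in the sources used here. Each column was matched to a sample by its description, and 0 columns were unmatched. Values were divided by the median ratio to the row geometric mean over the 7126 transcripts that reached 1 RPKM in all 16 libraries, and log2(value + 1) was taken. Tests used limma 3.58.1 in R 4.3.3 with an intensity trend, a mean for each of 8 groups and 8 residual degrees of freedom, on 15798 transcripts at 1 RPKM or more in 2 or more libraries; fits within 1 morph had 4. Calls needed a Benjamini-Hochberg adjusted p under 0.05. The fitting code was tested on simulated data.

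The members, lists and tests were chosen with earlier results of these data known. The rule for naming transcripts took the first 2 in rank, the 2 most abundant at the last stage, the edge of the rule, the extremes of the whole climb, the most similar pair, the smallest p in each direction per morph comparison, and the first 2 in rank that rose, and that went the other way, in the other morph. Alternatives were RPKM as deposited, quantile normalization, pseudocounts of 0.1 and 5, other filters, blocking on the replicate number, array weights, fits on the compared libraries and the removal of each library. Same-numbered libraries of both morphs deviated together within a stage (correlations 0.17, 0.38 and 0.17 over 3 stages with shared numbers), but correlations across stages ran from -0.18 to 0.24, so the numbers do not pair stages.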

Additional observations from a re-analysis of the deposited data

Results flagged for a closer look

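Among the members named above, each stage's 4 libraries were searched for a library far from the other 3 on the log2 scale, as were the members' share of RPKM and median level. A gap to the nearest library beyond the 95% critical value of Dixon's test was found in 9 of 76 groups. The members were named partly for extreme values and each group pools both morphs. The count is therefore not set against a chance rate, and no rate over all transcripts is given. JC_0023857 had Linea larva replicate 3 at 178 scaled RPKM against 8.08 to 10.8 (gap 0.911 of the range) and Linea early ommochrome replicate 2 at 2485 against 707 to 784 (0.918). Rosa larva replicate 2 stood high for JC_0116515, at 107 against 1.2 to 2.75 (0.863), and for JC_0044772, at 13.7 against 0.26 to 0.765 (0.863). JC_0029191 was low in Linea early ommochrome replicate 1, at 1.49 against 47.3 to 74.6 (0.869). JC_0049707 was high in Linea pre-pigment replicate 1, at 4.39 against 1.58 to 1.74 (0.915). JC_0007531 was low in Rosa early ommochrome replicate 1, at 23.5 against 130 to 152 (0.914), and in Linea late ommochrome replicate 1, at 65.5 against 235 to 290 (0.858). The members' share of RPKM was high in Rosa pre-pigment replicate 1, at 0.942% against 0.252% to 0.351% (0.856).

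Of the members named in the text, JC_0111448 and JC_0097415 had a step at which both Linea libraries went one way and both Rosa libraries the other. For JC_0111448 the step from early to late ommochrome was upward in Linea and downward in Rosa, a Rosa minus Linea difference of -3.318 log2 units. For JC_0097415 the step from pre-pigment to early ommochrome was upward in Linea and downward in Rosa, a difference of -6.231 log2 units, and the next step was the reverse, a difference of 5.807. The difference at the single step was not tested. In the F test over all stages neither passed, and JC_0097415 had a limma adjusted p of 0.39.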

How the results depend on the processing

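Of the 80 members, 39 stayed among the first 80 with RPKM as deposited and 49 with a pseudocount of 5, and between 52 and 74 when single libraries were left out (52 without Rosa early ommochrome replicate 1). For transcripts chosen in Linea and read in Rosa, the count of risers from larva to late ommochrome was 46, 0 with the replicate block, and between 0 and 50 without single libraries. For those chosen in Rosa and read in Linea it was 47, 8 with the replicate block, and between 18 and 59 without single libraries. Transcripts with all 3 steps above 0 in the other morph numbered 29 to 46 in Rosa and 26 to 45 in Linea. Members called between the morphs were 0 in every comparison under all settings run, except 1 in pre-pigment wings without Rosa pre-pigment replicate 2 and 1 at early ommochrome with array weights. The replicate block, over all stages or within each stage (the latter added after seeing the data), gave 0. Calls over all transcripts ranged from 0 to 169 in larvae, 0 to 243 in pre-pigment wings, 0 to 62 at early and 0 to 20 at late ommochrome, 0 to 19 averaged and 0 to 71 for the interaction. The members' median morph difference at early ommochrome was 0.91 with RPKM as deposited. Of the named morph differences the 1 that reversed was JC_0044772 in larvae, at 1.3 with all libraries, -0.46 without Rosa larva replicate 2 and 3.04 without Rosa larva replicate 3. Causes were not tested.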

Other observations

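In blocks of 1000 identifier numbers, chosen after their values were seen, 11 members fell between 49000 and 49999 and 11 between 110000 and 110999, blocks that hold 3.32% and 3.82% of all listed transcripts and 13.8% of the members each. The median difference from larva to late ommochrome was 0.63 and 0.55 log2 units over the kept transcripts of these blocks, against -0.11 over all kept transcripts. All 3 steps were above 0 for 14.5% and 16.6% of the transcripts in these blocks, and for 7.28% of the whole table. Between 109000 and 109999 there were 4 members among 149 transcripts (2.68%), beside 2.04% and 1.77% in the blocks above. That smaller block had a median difference of 1.00 log2 units, and 24.8% of its transcripts had all 3 steps above 0. What the numbering stands for is not given in the sources used here.

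Of the transcripts chosen in Rosa, 18 of 80 (22.5%) were at least 4-fold lower at late than at early ommochrome in Linea (a step below -2 log2 units), as were 3.19% of all transcripts. Of those chosen in Linea, 1 of 80 (1.25%) was so in Rosa, as were 1.58% of all. The limit of -2 was chosen after the values were seen, and the difference between both readings was not tested.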
